A study of Mus musculus and Homo sapiens with 20 samples.

Results

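The circadian clock genes studied here were Arntl (also called Bmal1), Clock, Per1, Per2, Per3, Cry1, Nr1d1, Nr1d2, Rora and Dbp, examined for chromatin accessibility in mouse hepatocytes. The assay was ATAC-seq. Its transposase, Tn5, cuts and tags DNA where chromatin is open, so that sequenced tags mark accessible sites. Overlapping peaks of 12 hepatocyte libraries were merged into 642948 regions, and a region was assigned to a clock gene when that gene's body was the nearest protein-coding one within 50 kb. This gave 751 regions. A peak was listed by every one of the 12 libraries for 159 of them, which could be tested, and for 101575 regions in all. A library's level in a region is the tag count of its highest peak there, divided by the library's relative size, and is called scaled tags below.

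The hepatocytes carried a floxed Ahr gene in every group. They fell into 4 groups of 3 libraries: control with Ad_Cont, B2_minus with Ad_Cont, control with Ad_Cre, and B2_minus with Ad_Cre, all labelled 4 weeks. B2_minus stands for deficiency of vitamin B2 (riboflavin), and whether it was given as a diet or in culture is not said. Cre is a recombinase that cuts out DNA flanked by loxP sites, the labels spell out neither Ad_Cre nor Ad_Cont, and Ahr encodes the aryl hydrocarbon receptor. The labels do not give the age, sex or strain of the mice, the time of day of collection, or whether replicates were separate animals or cultures, so p-values measure the spread between these libraries, which may be technical.

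The mammalian clock is a transcriptional loop. CLOCK and ARNTL (BMAL1), a pair of bHLH-PAS proteins, bind E-box elements and switch on the Per and Cry genes, whose products return to the nucleus and repress that pair. NR1D1 and NR1D2 (REV-ERB alpha and beta) repress, and RORA activates, transcription of Arntl through RORE elements, while DBP activates genes with D-box elements and has strongly rhythmic transcription in liver. Cryptochromes have a pocket that can bind FAD, a cofactor made from riboflavin, and AHR is itself a bHLH-PAS protein that binds the xenobiotic response element.

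Across the lists, 200698 to 281141 peaks and 3897632 to 5557678 tags per library were used, nearly all in peaks of 200 bp. The lowest listed count was 6 to 8 tags, so a weaker site is missing from a list instead of listed at 0. Of the 8 hepatocyte marker genes, all 8 had tested regions, as had 6 of 6 markers of sinusoidal endothelium, 6 of 6 of stellate cells, 6 of 6 of bile duct and 2 of 6 of Kupffer cells and macrophages (not Clec4f, Cd5l, Adgre1 or Vsig4). Chromatin can be open at a gene in cells that do not express it, and a change in the share of cells cannot be told apart from a change per cell in bulk libraries. At the floxed gene itself, 9 of 58 Ahr regions were tested and 0 were called for Ad_Cre against Ad_Cont. Unadjusted, 3 of the 9 had an edgeR p under 0.05, a larger share than the 9.87% of all regions. Log2 fold changes of the 9, Ad_Cre over Ad_Cont, ran from -0.30 to 0.21. Summed scaled tags of the 9 regions were 249 to 278 with Ad_Cont and 244 to 279 with Ad_Cre. Since the deleted part is not given, this does not check recombination.

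Promoters from RefSeq (GRCm38.p6, the assembly of mm10) were found for 9 of the 10 genes, as 13 windows of 300 bases, and 12 of these windows overlapped a tested region. They were searched on both strands for the clock's own elements: the E-box CACGTG, the RORE core TAGGTCA and the D-box TTANGTAA, and for the xenobiotic response element core GCGTG. The 4 windows below are shown because they hold the clock elements that were found; capitals mark all matches, including GCGTG or its reverse complement CACGC, and offsets count the listed start as base 0.
Arntl, chr7:113207261-113207560, plus strand: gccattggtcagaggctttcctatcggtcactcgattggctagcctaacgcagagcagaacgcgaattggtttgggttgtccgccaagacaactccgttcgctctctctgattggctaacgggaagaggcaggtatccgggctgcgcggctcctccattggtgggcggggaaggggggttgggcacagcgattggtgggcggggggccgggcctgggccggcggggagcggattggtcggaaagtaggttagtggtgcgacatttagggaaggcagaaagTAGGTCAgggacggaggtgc
Per1, chr11:69098699-69098998, plus strand: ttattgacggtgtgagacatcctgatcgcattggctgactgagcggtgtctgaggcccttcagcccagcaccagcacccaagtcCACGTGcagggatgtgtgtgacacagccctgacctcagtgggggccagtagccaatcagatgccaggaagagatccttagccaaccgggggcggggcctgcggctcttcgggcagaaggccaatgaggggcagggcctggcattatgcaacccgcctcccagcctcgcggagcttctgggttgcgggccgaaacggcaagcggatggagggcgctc
Cry1, chr10:85185005-85185304, minus strand: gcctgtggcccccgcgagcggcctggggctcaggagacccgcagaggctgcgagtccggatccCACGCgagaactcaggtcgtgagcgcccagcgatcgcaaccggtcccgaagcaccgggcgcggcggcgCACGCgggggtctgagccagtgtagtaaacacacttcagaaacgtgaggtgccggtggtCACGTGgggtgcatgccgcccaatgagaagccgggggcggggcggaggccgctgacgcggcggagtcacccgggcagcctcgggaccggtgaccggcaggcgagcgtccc
Per3, chr4:151044616-151044915, minus strand: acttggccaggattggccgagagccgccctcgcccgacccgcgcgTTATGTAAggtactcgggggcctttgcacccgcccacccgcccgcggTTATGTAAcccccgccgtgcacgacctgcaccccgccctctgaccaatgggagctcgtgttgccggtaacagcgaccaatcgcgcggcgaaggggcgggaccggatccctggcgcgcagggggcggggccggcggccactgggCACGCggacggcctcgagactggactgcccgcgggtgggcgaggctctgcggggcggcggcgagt

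The E-box began at -166 in the Per1 window and at -60 in the Cry1 window, and 7.15% of all 32817 windows held one. Both D-box matches lay in the Per3 window, at -205 and -158, where 2.32% of all windows held at least 1. The RORE core, the element read by the ROR and REV-ERB proteins, began at 30 in the second of the Arntl windows and was found in 2.61% of all. The GCGTG core, short and common, was in 9 of the 13 clock windows and 8 of the 9 genes, against 32.4% of all windows. These matches are letters in a window and were not tested as binding sites.

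By median level, open chromatin was stronger at the starts of the clock genes than in their other regions. No start region passed the main test for a difference between B2_minus and control. A region was placed at a start when it lay within 1 kb of one listed by RefSeq. The contrast of B2_minus with control averaged over Ad_Cont and Ad_Cre is called the averaged B2 contrast. There 0 of 20 start regions tested passed an adjusted p of 0.05 (edgeR quasi-likelihood test), where 5.78% of all regions did. The lowest edgeR adjusted p of the 20 was 0.0571, at an Nr1d2 region inside the gene (chr14:18238201-18238650). That region passed 0.05 in 5 of 21 alternative processing settings. At an unadjusted p under 0.05 were 3 of the 20 (15%, against 19.7% of all regions). The log2 fold changes of the 20 start regions, B2_minus over control, ran from -0.21 to 0.30, with a median of -0.05. The start regions had a median level of 54.1 scaled tags against 24.6 for the other clock regions.

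**Figure D1:**
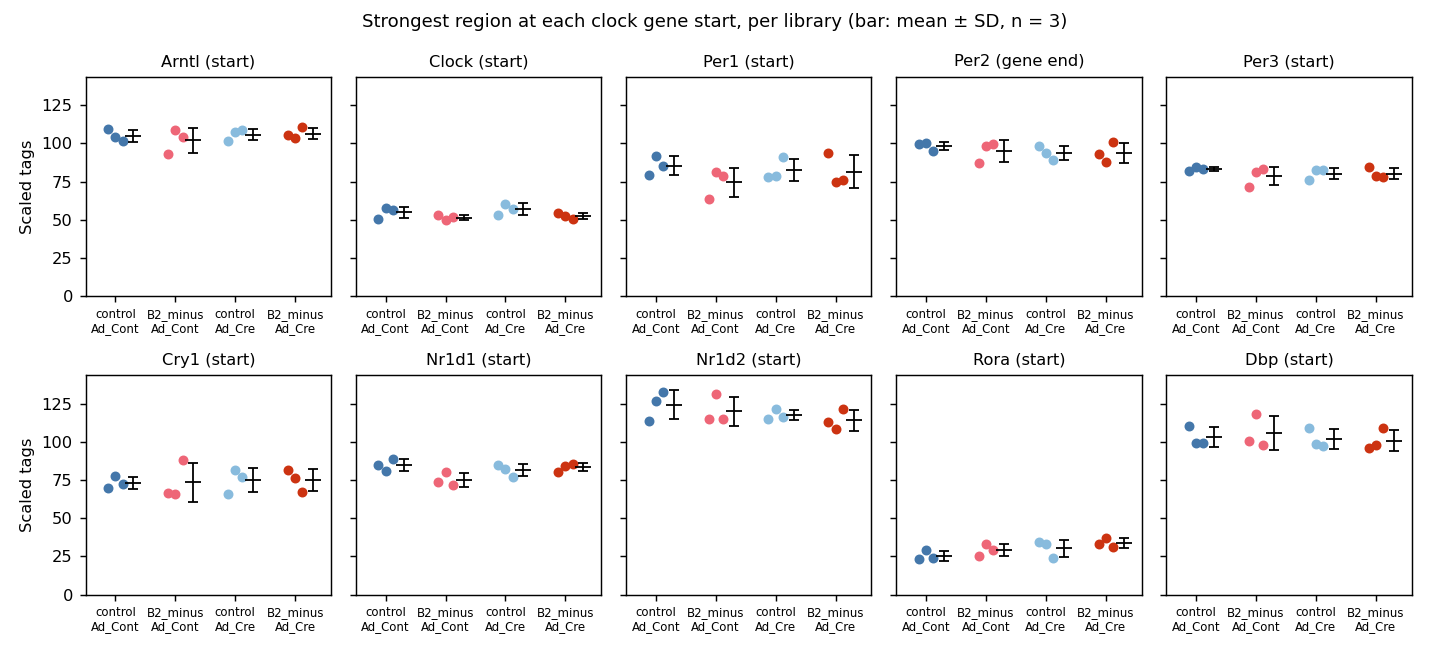
Scaled tags (y axis) of the strongest region at each gene's start, or for Per2 at a gene end, in the 4 groups (x axis), 1 point per library, with the group mean and SD (n = 3) beside the points. Control and B2_minus overlap in each panel for both Ad arms, except at Nr1d1 with Ad_Cont, and Nr1d2 sits highest and Rora lowest.

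Among the activators, the Arntl start (chr7:113207040-113207434) had 109, 105 and 101 scaled tags in control with Ad_Cont and 93.2, 109 and 104 in B2_minus with Ad_Cont. With Ad_Cre it had 101, 107 and 109 in control and 105, 103 and 111 in B2_minus. All 4 groups overlapped, and the averaged log2 fold change was -0.02 (SE 0.0523, edgeR adjusted p = 0.870). The Clock start (chr5:76304663-76305184) was weaker, at 50.8, 57.7 and 56.1 in control and 52.9, 50.1 and 51.5 in B2_minus with Ad_Cont. With Ad_Cre it was at 52.9, 60.7 and 57.0 in control and 54.2, 52.7 and 50.8 in B2_minus. Its groups overlapped too, with a log2 fold change of -0.11 (SE 0.0800, adjusted p = 0.499), and it was also the Clock region of lowest adjusted p.

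Of the repressors of the negative limb, the Per1 start (chr11:69098664-69098915), whose window holds the E-box shown above, had 79.6, 91.6 and 85.3 scaled tags in control and 63.6, 81.0 and 78.9 in B2_minus with Ad_Cont. With Ad_Cre these were 78.3, 78.5 and 91.1 in control and 93.9, 74.7 and 76.2 in B2_minus. The lowest and the highest library were both B2_minus, and the averaged change was -0.12 (SE 0.0641, adjusted p = 0.264). For Per2, the strongest region at a gene end (chr1:91459302-91459740) ranged from 86.9 to 101 over the 12 libraries, with a change of -0.02 (SE 0.0559, adjusted p = 0.868). The Per3 start (chr4:151044599-151045069), which holds the D-box pair, ranged from 71.7 to 84.6, with a change of -0.05 (SE 0.0617, adjusted p = 0.727). The Per3 start region also overlaps the gene Gm38529, as a region at the Dbp end overlaps Sphk2, and cannot be given to either gene alone. The Cry1 start (chr10:85184936-85185607), with its E-box, ranged from 66.1 to 88.4 and changed by -0.01 (SE 0.0679, adjusted p = 0.973). The lowest and the highest Cry1 values both came from B2_minus with Ad_Cont.

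In the RORE loop, the Nr1d1 start (chr11:98775211-98775658) had 85.1, 80.6 and 88.5 scaled tags in control and 73.5, 80.0 and 71.5 in B2_minus with Ad_Cont, and 84.9, 82.5 and 77.1 in control and 80.3, 84.3 and 85.2 in B2_minus with Ad_Cre. B2_minus was the lower group with Ad_Cont without overlap, the groups overlapped with Ad_Cre, and the averaged change was -0.07 (SE 0.0614, adjusted p = 0.581). The Nr1d2 start (chr14:18239122-18239474) was the strongest clock region by mean level, at 108 to 133, with a change of -0.05 (SE 0.0489, adjusted p = 0.645). The Rora start (chr9:68653521-68653827), at the only start listed for that gene, was the weakest of these starts. It had 23.2, 28.9 and 23.8 in control and 25.1, 33.0 and 29.5 in B2_minus with Ad_Cont, then 34.2, 32.8 and 23.7 in control and 33.4, 37.4 and 30.8 in B2_minus with Ad_Cre. The groups overlapped, with a change of 0.19 (SE 0.124, adjusted p = 0.426). At the start of Dbp (chr7:45704707-45705125), the output factor, values ranged from 96.0 to 118 and changed by 0.01 (SE 0.0541, adjusted p = 0.919). By mean over the 12 libraries the order was Nr1d2 (119), Arntl (105), Dbp (103), Per2 (95.2), Nr1d1 (81.1), Per1 (81.1), Per3 (80.6), Cry1 (74.2), Clock (54.0) and Rora (29.6), given as a description of peaks of nearly equal width. Arntl and Dbp, and likewise Nr1d1, Per1 and Per3, differed by less than their spread over libraries. Whether repeated tags at the same position were removed is not stated, and such removal would compress the highest levels and the differences between them.

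A small number of clock gene regions away from the starts differed between B2_minus and control. In the averaged B2 contrast 7 of 159 regions were called, which is 4.40%, against 5.78% of all regions: 3 were higher in B2_minus (2.45% of all regions were) and 4 were lower (3.33% of all). They belonged to Arntl (1 higher, 1 lower), Per1 (1 lower), Per3 (1 lower) and Rora (2 higher, 1 lower), and the share lies near the background. The median log2 fold change over the 159 regions was -0.02, against 0.00 over all, and 31 regions (19.5%) had an unadjusted p under 0.05, against 19.7% of all. With library sizes taken from all listed tags instead of TMM, the split was 15 higher and 2 lower, and the median of all regions moved to 0.10. With peaks of at least 15 tags it was 0 higher and 5 lower, among 100 clock regions. Replicates varied less than counting noise, and when the model was not allowed a spread below that noise, 0 of the 7 calls remained (996 of all regions were called). DESeq2 also called 0 clock regions, against 0.0443% of all, with no adjusted p for 36 of the 159.

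**Figure D2:**
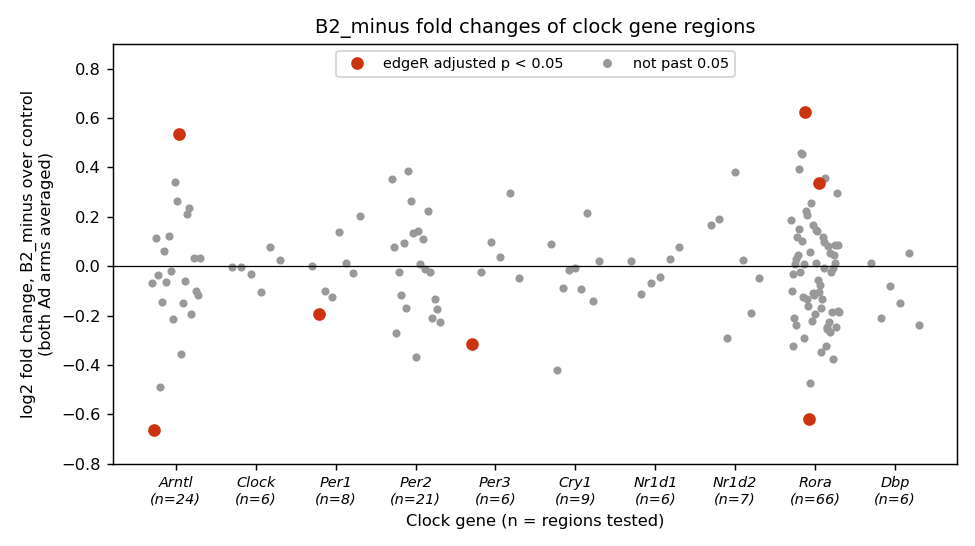
Log2 fold change of B2_minus over control (y axis), averaged over Ad_Cont and Ad_Cre, for the 159 tested regions by gene (x axis, ordered by position within a gene), with the 7 regions past an edgeR adjusted p of 0.05 in red. Most points lie around 0, and the red points of Arntl and Rora fall on both sides.

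Arntl, the partner of CLOCK, had both the lowest adjusted p and changes in either direction. A region 73.2 kb before the listed start and 44.2 kb outside the gene body (chr7:113133956-113134276) had 16.6, 12.9 and 18.4 scaled tags in control and 8.96, 10.7 and 9.47 in B2_minus with Ad_Cont. With Ad_Cre it had 16.5, 22.9 and 15.8 in control and 11.5, 14.4 and 10.0 in B2_minus. Every B2_minus library lay below every control library of its own Ad arm, and the region fell by 0.66 on the log2 scale (SE 0.178, adjusted p = 0.0114). Without replicate 2 of control with Ad_Cre the change was -0.57 and the adjusted p 0.0512. A region inside the gene, 32.3 kb after the start (chr7:113239810-113240092), had 16.6, 16.9 and 10.8 in control and 30.5, 26.7 and 29.5 in B2_minus with Ad_Cont. With Ad_Cre it had 15.4, 27.8 and 17.5 in control and 20.9, 22.0 and 22.7 in B2_minus. The groups were apart with Ad_Cont and overlapped with Ad_Cre, where replicate 2 of the control was higher than all 3 B2_minus libraries. The averaged change was 0.53 (SE 0.154, adjusted p = 0.0201), and that with Ad_Cont alone 0.96 (SE 0.220, adjusted p = 0.0111). Its averaged call was lost without replicate 3 of control with Ad_Cont (0.0899), replicate 1 of B2_minus with Ad_Cont (0.0507), or replicates 1 (0.0647) or 3 (0.0669) of control with Ad_Cre.

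Per1 and Per3, whose proteins belong to the repressor complex, each had 1 region that fell. The Per1 region (chr11:69096987-69097308) lay 1641 bp before the nearest listed start but inside the annotated gene body. It had 84.0, 89.6 and 97.2 scaled tags in control and 70.8, 85.3 and 75.7 in B2_minus with Ad_Cont, then 81.6, 81.5 and 88.5 in control and 78.2, 71.8 and 77.1 in B2_minus with Ad_Cre. The arms overlapped with Ad_Cont and were apart with Ad_Cre, and the region fell by 0.19 (SE 0.0618, adjusted p = 0.0428). Leaving out any of 8 of the 12 libraries ended that call, with adjusted p from 0.0501 to 0.151. The Per3 region (chr4:150973287-150973562), 23.5 kb outside the gene body, had 51.9, 59.7 and 58.3 in control and 46.6, 39.4 and 51.5 in B2_minus with Ad_Cont. With Ad_Cre it had 46.3, 51.7 and 56.1 in control and 41.7, 38.3 and 43.5 in B2_minus. B2_minus libraries were the lower ones in both arms without overlap, and the region fell by 0.32 (SE 0.0870, adjusted p = 0.0142). The adjusted p was 0.0560 without replicate 2 of B2_minus with Ad_Cont and 0.0663 without replicate 3 of control with Ad_Cre. Both calls were lost with library sizes from listed tags, where the Per1 change was -0.10 (adjusted p = 0.352) and the Per3 change -0.22 (adjusted p = 0.0910). When peaks in 3 libraries sufficed, the changes were -0.08 and -0.20 (adjusted p = 0.479 and 0.183).

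**Figure D3:**
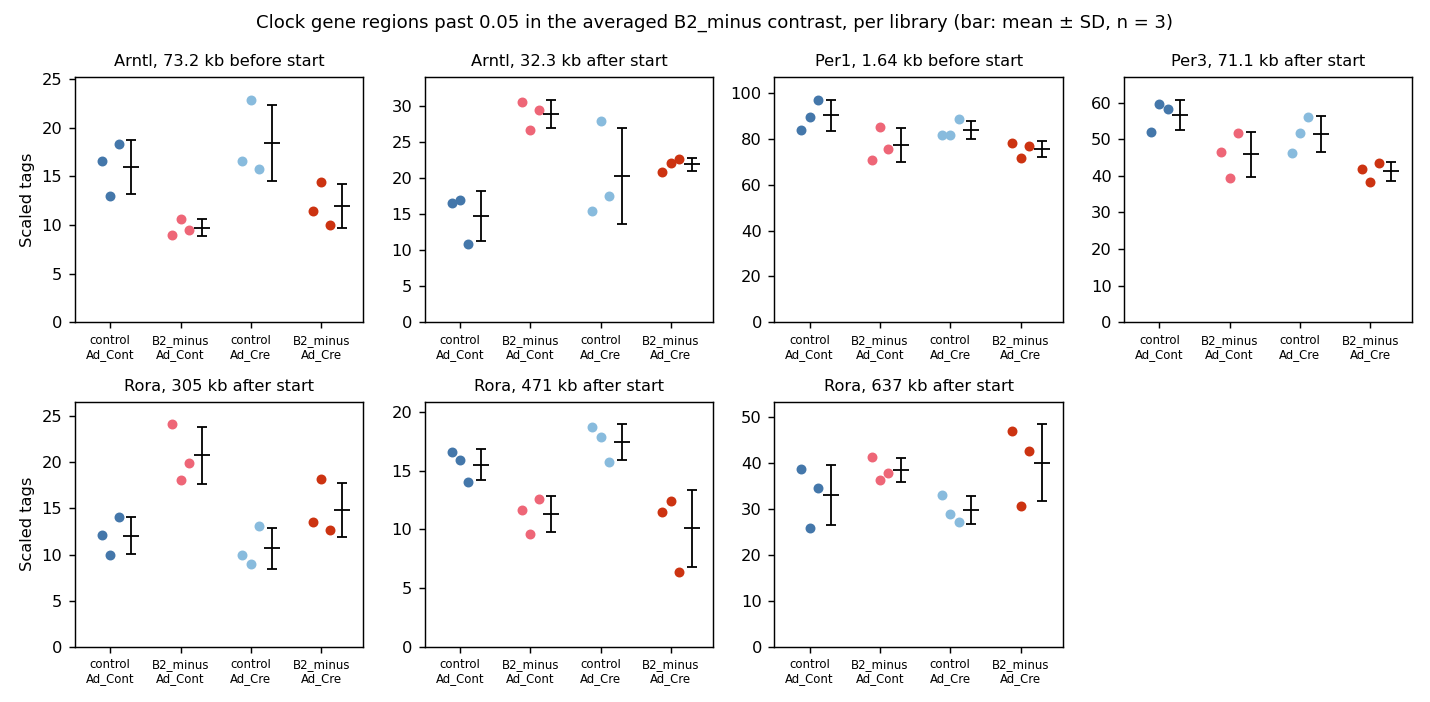
Scaled tags (y axis, each panel with its own scale from 0) in the 7 regions called in the averaged B2 contrast, by group (x axis), 1 point per library with the group mean and SD (n = 3). The 3 regions higher in B2_minus are those of Arntl 32.3 kb after the start and of Rora 305 and 637 kb after the start, and the other 4 are lower.

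Rora encodes the nuclear receptor that activates Arntl, and its gene is 735 kb long, the longest of the 10. It held 350 of the 751 clock regions and 66 of the 159 tested, all within the gene body, so that counts over the clock genes weigh it most. Of the 66, 31 were higher and 35 lower in B2_minus on average, 6 had a log2 fold change over 0.3 and 6 under -0.3, and 2 passed the test as higher and 1 as lower. The median was -0.02 and the SD over regions 0.23. Tested regions were densest at the far end, with 33 of 66 between 600 and 800 kb after the start. Mean levels of the 66 regions ran from 9.27 to 85.1 scaled tags, against 29.6 at the listed start.

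The Rora region 305 kb after the start (chr9:68958965-68959296) had 12.2, 9.95 and 14.0 scaled tags in control and 24.2, 18.1 and 20.0 in B2_minus with Ad_Cont. With Ad_Cre it had 9.92, 8.95 and 13.1 in control and 13.6, 18.2 and 12.7 in B2_minus. The arms were apart with Ad_Cont and overlapped with Ad_Cre, and the region rose by 0.63 (SE 0.177, adjusted p = 0.0175). It lost its call without replicate 2 of control with Ad_Cont (0.0607), replicate 1 of B2_minus with Ad_Cont (0.0615), replicate 2 of control with Ad_Cre (0.0561) or replicate 2 of B2_minus with Ad_Cre (0.0841). The region 471 kb after the start (chr9:69125024-69125615) moved the other way. It had 16.6, 15.9 and 14.0 in control and 11.6, 9.59 and 12.6 in B2_minus with Ad_Cont, then 18.7, 17.9 and 15.8 in control and 11.5, 12.5 and 6.35 in B2_minus with Ad_Cre. All 6 control libraries lay above all 6 B2_minus libraries, and it fell by 0.62 (SE 0.178, adjusted p = 0.0193). Without replicate 2 of B2_minus with Ad_Cont the adjusted p was 0.0508, and without replicate 3 of B2_minus with Ad_Cre it was 0.113. The last, 637 kb after the start (chr9:69291023-69291582), had 38.7, 25.9 and 34.5 in control and 41.2, 36.2 and 37.9 in B2_minus with Ad_Cont, and 33.1, 28.8 and 27.2 in control and 46.9, 30.6 and 42.6 in B2_minus with Ad_Cre. Its groups overlapped in both arms, with a change of 0.34 (SE 0.111, adjusted p = 0.0499) that passed the threshold narrowly. Leaving out any of 9 of the 12 libraries ended the call, with adjusted p from 0.0522 to 0.197.

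**Figure D4:**
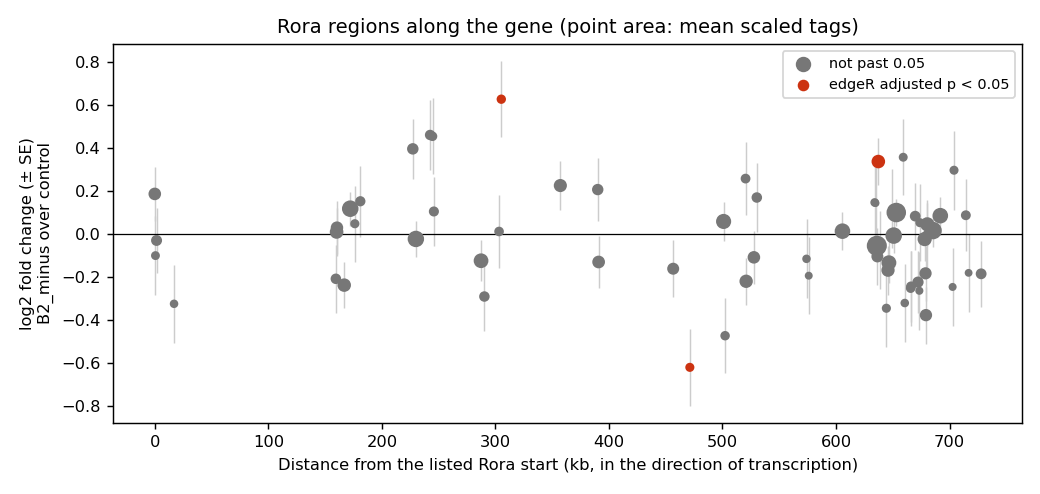
Log2 fold change of B2_minus over control with its SE (y axis) for the 66 tested Rora regions, by distance from the listed start in kb (x axis), with point area for the mean scaled tags and the 3 called regions in red. Regions above and below 0 lie side by side along the gene, and the 3 called ones lie 305, 471 and 637 kb from the start.

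Control and B2_minus were fully apart in few regions. In 2 of 159 clock regions (1.26%, against 2.23% of all) the 6 B2_minus libraries did not overlap the 6 control libraries: the Rora region at 471 kb and a Rora region 227245 bp after the start (chr9:68881031-68882100), named after its values were seen. The latter had 22.1, 15.9 and 20.5 scaled tags in control and 29.6, 27.7 and 28.4 in B2_minus with Ad_Cont, and 19.8, 23.9 and 21.9 in control and 26.1, 26.8 and 24.5 in B2_minus with Ad_Cre. Its change of 0.39 (SE 0.140) had an adjusted p of 0.0719. It was among 7 clock regions with adjusted p between 0.05 and 0.1, of Arntl (1), Per2 (1), Nr1d2 (1) and Rora (4).

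Per2, Cry1, Nr1d1, Nr1d2, Dbp and Clock had no called region. For Per2 the region of lowest adjusted p (chr1:91448700-91449523, inside the gene) averaged 29.1 ± 5.08 scaled tags (SD, n = 6) in control and 22.6 ± 3.99 in B2_minus, with a change of -0.37 (SE 0.136, adjusted p = 0.0888). For Cry1 it was a region inside the gene (chr10:85162953-85163409) at 15.2 ± 2.22 and 11.4 ± 2.15, with -0.42 (SE 0.178, adjusted p = 0.153). For Nr1d1 (chr11:98773685-98774177) the averages were 88.1 ± 5.27 and 81.5 ± 4.49, with -0.11 (SE 0.0598, adjusted p = 0.290). The Nr1d2 region just inside the gene (chr14:18238201-18238650) was nearest to a call, at 82.1 ± 4.45 and 72.5 ± 6.17, with -0.19 (SE 0.0644, adjusted p = 0.0571). It lay 456 bp after the listed start, so it counted among the start regions. For Dbp (chr7:45705960-45706220), also a start region, the averages were 44.2 ± 3.23 and 38.0 ± 3.77, with -0.21 (SE 0.0971, adjusted p = 0.197). Each of these 5 changes was negative, and each gene's regions were picked here for their low p.

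Summed over a gene's tested regions, control and B2_minus libraries overlapped in both Ad arms for every gene but Dbp. Rora, with the most regions, had 1750 ± 19.0 scaled tags (SD, n = 3) in control and 1738 ± 6.01 in B2_minus with Ad_Cont, and 1720 ± 37.8 and 1702 ± 25.4 with Ad_Cre. Arntl had 700.4 ± 24.7 and 702 ± 10.6 with Ad_Cont, and 689 ± 24.5 and 684 ± 17.8 with Ad_Cre. Dbp had 298 ± 5.37 and 290.0 ± 6.86 with Ad_Cont, and 314 ± 8.10 and 292 ± 2.29 with Ad_Cre. In the Dbp sums the 3 control libraries with Ad_Cre, at 305 to 321, lay above the 3 B2_minus libraries, at 291 to 295, while the groups with Ad_Cont overlapped. Dbp is shown for that lack of overlap, seen on looking through the sums of all the genes in both arms. Among all single regions, 17.5% had no overlap between the groups with Ad_Cre, and no such share is given for sums over all genes. These sums are given as a description, with no test.

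Each Ad arm alone gave fewer calls. With Ad_Cont, 1 of 159 clock regions passed, the Arntl region 32.3 kb after the start, against 1.04% of all regions. With Ad_Cre, 0 passed (edgeR, lowest adjusted p 0.0706), against 1.13% of all. At an unadjusted p under 0.05 with Ad_Cre were 10 (6.29%, against 13.4% of all). Scaled tags of the 3 B2_minus and 3 control libraries did not overlap in 28 clock regions with Ad_Cont (17.6%, against 17.3% of all) and in 26 with Ad_Cre (16.4%, against 17.5%). The change had the same sign in both arms in 102 of 159 regions (64.2%, against 62.3% of all). The difference between the arms was tested as an interaction, which called 0 clock regions and 0.0% of all. Unadjusted, 4 clock regions had an interaction p under 0.05 (2.52%, against 5.14% of all). At the Arntl region 32.3 kb after the start, where the changes were 0.96 and 0.11, the interaction was -0.85 (edgeR adjusted p = 0.945).

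**Figure D5:**
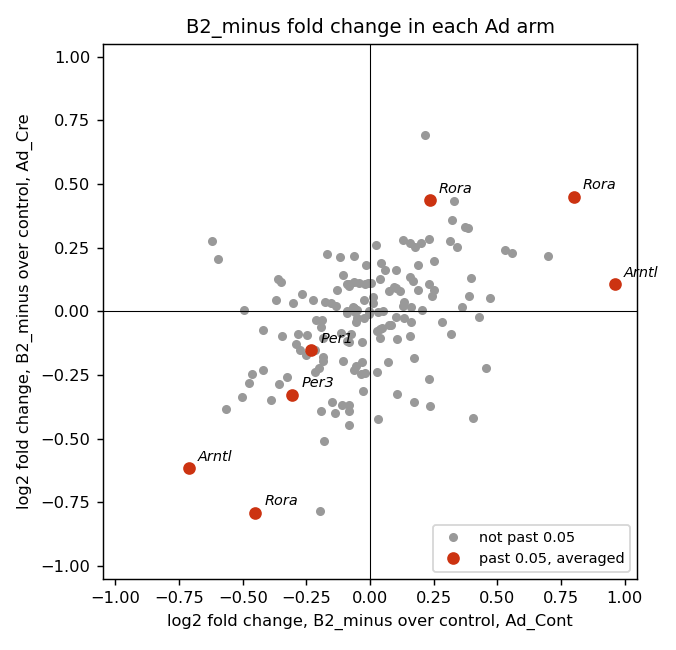
Log2 fold change of B2_minus over control with Ad_Cont (x axis) and with Ad_Cre (y axis) for the 159 tested clock regions, with the 7 called in the averaged contrast in red. The arms share no libraries, 102 of 159 points lie in the same-sign quadrants, and the red Arntl point at the right has a change of 0.96 with Ad_Cont and 0.11 with Ad_Cre.

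Ad_Cre against Ad_Cont left the clock regions with no call. Averaged over control and B2_minus 0 of 159 passed, against 0.0955% of all regions. At an unadjusted edgeR p under 0.05 were 14 (8.81%, against 9.87% of all). In control libraries 0 passed, against 0.00591% of all, with 9 unadjusted (5.66%, against 7.82% of all). In B2_minus 0 passed, against 0.00197%, with 15 unadjusted (9.43%, against 7.29% of all). The lowest adjusted p was at an Arntl region 34668 bp after the start (chr7:113242179-113242471), named after its values were seen. It had 48.6, 45.8 and 41.0 scaled tags in control and 35.8, 45.8 and 45.2 in B2_minus with Ad_Cont, and 30.9, 41.8 and 33.3 in control and 28.2, 31.6 and 32.6 in B2_minus with Ad_Cre. Values were lower with Ad_Cre on average, with overlap, and the change was -0.39 (SE 0.103, adjusted p = 0.0768).

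Regions of other clock regulators were also called in both directions. Over 22 genes with 213 tested regions, 5 regions were higher and 4 lower in B2_minus (4.23%, against 5.78% of all regions), with a median of 0.02 against 0.00. The share lies below that of all regions, so the genes are named as a description. Higher were 2 regions of the cryptochrome gene Cry2 (0.23, SE 0.0740, and 0.29, SE 0.0973), 1 of Nfil3, a repressor at D-boxes (0.27, SE 0.0831), 1 assigned to Btrc, which encodes a ubiquitin ligase subunit that acts on PER proteins (0.30, SE 0.0894), and 1 near Bhlhe40, an E-box repressor (0.50, SE 0.146). At the Bhlhe40 region the averages were 19.0 ± 3.40 in control and 26.9 ± 3.88 in B2_minus (SD, n = 6). Lower were 1 region each of Fbxw11 (-0.68, SE 0.181), Arntl2, a paralog of Arntl (-0.52, SE 0.144), Hlf, a relative of Dbp (-0.47, SE 0.141), and the PER kinase gene Csnk1d (-0.29, SE 0.0869).

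Of 24 genes known as outputs of the liver clock, 23 had tested regions, 255 in all, of which 4 were higher and 8 lower (4.71%, against 5.78% of all regions), with a median of 0.04 against 0.00. This share too is below that of all regions. The highest change was at Cyp7a1, the rate-limiting enzyme of bile acid synthesis, at 19.9 ± 6.58 scaled tags in control and 30.8 ± 4.67 in B2_minus (SD, n = 6), with 0.63 (SE 0.143, edgeR adjusted p = 0.00194). All 3 called regions of Mthfd1l, a mitochondrial folate enzyme, were lower, by values of -0.53, -0.44 and -0.34. All 3 called regions of Por, the flavoprotein that passes electrons to cytochromes P450, were lower as well (-0.54, -0.28 and -0.20), the last at 102 ± 5.08 in control and 88.6 ± 4.56 in B2_minus. Noct, which encodes nocturnin, had 2 higher and 1 lower, and Insig2, of sterol control, 1 of each. With library sizes from listed tags these lists split 22 higher to 2 lower and 31 to 4. In that setting 11.6% of all regions were called, and the median change of all regions was 0.10. The balance of higher and lower calls within these lists thus depends on that scaling.

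Marker regions of other cell types were also called, where 5.78% of all regions were. Of 24 tested regions of stellate cell genes 3 were lower and 0 higher (12.5% called), with summed scaled tags of 676 to 749 in the control libraries and 591 to 645 in B2_minus. These calls lay in Col1a1 (2) and Lrat (1). The strongest regions of Lrat, Reln, Dcn and Col1a1 averaged lower in B2_minus in both Ad arms. For Pdgfrb and Des they averaged higher with Ad_Cont and lower with Ad_Cre. Of 33 of bile duct genes 5 were lower and 0 higher (15.2%), at 947 to 1024 in control and 890 to 954 in B2_minus. These calls lay in Spp1 (3), Krt19 (1) and Krt7 (1). Sox9, with 12 of the 33 regions, had 0 calls, and its strongest region averaged higher in B2_minus in both arms. Those of Krt19, Epcam and Spp1 averaged lower in both, and those of Krt7 and Cftr differed in sign between arms. Of 35 of endothelial genes 3 were higher and 1 lower (11.4%), at 871 to 917 in control and 933 to 982 in B2_minus. Those calls lay in Stab2 (3), which held 18 of the 35 regions, and Kdr (1). The strongest regions of Stab2 and Lyve1 averaged higher in B2_minus in both Ad arms. Those of Kdr and Cdh5 averaged lower in both, and those of Pecam1 and Clec4g differed in sign between arms. Of 103 of hepatocyte genes 6 were higher and 3 lower (8.74%), at 2651 to 2825 in control and 2838 to 2912 in B2_minus. The Kupffer cell list (6 regions) had 0 calls. The part of these cell types in the clock gene changes was not tested.

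The regions of other genes whose 12-library profiles were most like those of both leading regions are named as a description. Likeness was the root mean square difference of log2 scaled tags, each centred on its own mean, and the smallest of many such distances lie far below their median by construction. For the Rora region at 305 kb the nearest were regions of St18 (0.150), Nudt7 (0.169) and Rhou (0.178), against a median of 0.474 over all regions. For the Arntl region 73.2 kb before the start they were regions of Slc46a1 (0.140), Pole (0.153) and Sfi1 (0.155), against a median of 0.463.

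Most clock regions were not in every list. Of 592 with a peak in fewer than 12 libraries, 316 were in 1 library and 108 in 6 to 11. No clock region had a peak in all 6 libraries of B2_minus or of control and in 0 of the other 6. Among 541373 regions in all, 45 did with B2_minus and 76 with control. The 541373 are all regions without a peak in every library, also those not assigned to a gene. A Rora region 467367 bp after the start (chr9:69121153-69121534) had a peak of 7 to 9 tags in 5 of 6 control libraries and in 0 of 6 B2_minus libraries. A peak in at least 5 control and at most 1 B2_minus libraries was found in 1 of the 592 clock regions without a peak in every library. It was found in 1577 of the 541373 such regions in all. Counts this close to the lowest listed count cannot separate a lost site from one just under it.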

How the data were processed

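ATAC-seq libraries of floxed-Ahr mouse hepatocytes (4 groups of 3, from the sample titles) were used, and 8 HepG2 libraries were not used here. The authors deposited 1 peak list per library with whole-number tag counts, a unit inferred from the values since no header gives it. Bowtie2 and HOMER, and the builds hg38 and mm10, are named per the submitters' processing notes. Versions, settings, the treatment of duplicates and the number of reads are not stated there, so sequencing depth is unknown.

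Peaks on chromosome Y or unplaced sequences (0.151%) were left out. Peaks overlapping by at least 1 bp were merged, and each library's highest count per region was scaled by TMM. Genes and starts came from RefSeq tables on GRCm38.p6. They give no exons, so regions are placed by gene body and start. Regions with a peak in all 12 libraries were tested with edgeR 4.0.16 in R 4.3.3 (glmQLFit with legacy=FALSE, 4 group means, 7 contrasts), with Benjamini-Hochberg adjustment over 101575 regions and a threshold of 0.05. That form lets the spread fall below Poisson noise. Replicate pairs differed by chi-square values of 0.595 to 0.620 per region, and no pair stood apart. The code was checked on data simulated at Poisson noise, which does not cover a spread below that noise.

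Members, lists, the test's form and its alternatives were chosen with earlier results of these data known. Regions were named when called in any contrast, strongest at a gene start or end, or lowest in adjusted p for their gene. Replicate numbers were not used as pairs: deviations of same-numbered libraries correlated by -0.016 to 0.0123 over 18 pairs. Alternatives included DESeq2 1.42.0 and limma 3.58.1 on log2(scaled tags + 1), and other merging, scaling and filters. A further marker list is not reported here.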

Additional observations from a re-analysis of the deposited data

Results flagged for a closer look

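Both results here concern data outside the tests, in regions without a peak in all 12 libraries. An Arntl region inside the gene (chr7:113220881-113221215) had a peak in 5 of 6 B2_minus libraries, at 6 to 9 tags, and in 1 of 6 control libraries, at 8 tags. A Rora region (chr9:68884376-68884643), inside the gene, had a peak in 5 of 6 B2_minus libraries, at 6 to 12 tags, and in 1 of 6 control libraries, at 7 tags. Such a pattern (5 or more of B2_minus, at most 1 of control) was present in 2 of 592 clock regions and in 1257 of 541373 of all, and was not tested.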

How the results depend on the processing

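The main edgeR fit called 7 clock regions in the averaged B2 contrast. The count was 0 with DESeq2, 0 with the spread bounded at Poisson noise, and 0 with peaks summed per region. It was 4 of 356 when peaks in 3 libraries sufficed (0 of the 7 among them). It was 17 with listed-tag library sizes (5 of the 7), and 3 to 8 with 1 library left out. Of all regions, 5.78% were called in the main fit, 0.0443% with DESeq2, 0.981% with the bound and 1.45% with summed peaks. The share was 1.65% with peaks in 3 libraries (1.12% of clock regions) and 11.6% with listed-tag sizes (10.7%). With peaks of at least 15 tags it was 5.58%, and with 1 library left out 4.08% to 4.99%. Limma called 6 and shared 5 of the 7. The single call with Ad_Cont became 0 with DESeq2, the bound, summed peaks, peaks of at least 15 tags, or peaks in 3 libraries sufficing, and 0 to 1 with 1 library left out (0 without replicate 3 of control or replicate 1 of B2_minus, both with Ad_Cont). With Ad_Cre, 0 became 3 with listed-tag sizes and 1 with a merge overlap of 100 bp, and for the averaged Ad_Cre contrast 0 became 1 with listed-tag sizes. The 9 calls of other clock regulators became 0 with DESeq2, 0 with the bound, 0 with summed peaks, 3 with peaks of at least 15 tags, 24 with listed-tag sizes, and 1 to 9 with 1 library left out. The 12 of clock output genes became 0, 2 and 1 with DESeq2, the bound and summed peaks, 35 with listed-tag sizes, and 7 to 12 with 1 library left out. With the replicate number as a block, 6 of the 7 clock calls remained, and 5836 regions in all were called against 5867. The numbers are not said to mark shared animals, same-numbered libraries did not deviate together, and 5 of 12 correlated best with their own number. Among 447 alternatives for 22 named regions, 61 lost a call, 6 gained one (of Per2 and Nr1d2) and no called change reversed. Only the 7 called regions could lose a call. The Arntl regions kept it in 15 of 19 alternatives (73.2 kb before the start) and 12 of 20 (32.3 kb after). Per1 kept it in 7 of 21 and Per3 in 14 of 21. The Rora regions kept it in 12 of 19 (305 kb), 14 of 19 (471 kb) and 4 of 20 (637 kb). Signs changed in 28 uncalled cases in 10 regions. Leaving out regions tied between genes was chosen after seeing the data and kept all 7 calls. Counts near the lowest listed tag limit every weak region.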
